A study of Mus musculus with 6 samples.

Results

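Genes of cartilage and joint formation were examined in peak lists from ChIP-seq of the mouse forelimb bud. The set held 33 genes, taken from a fixed list of symbols, of the 21701 protein-coding genes with a unique symbol on the autosomes and X chromosome. It comprised the SOX trio partners Sox5 and Sox6, 6 fibrillar and fibril-associated collagens, 9 other matrix genes, 2 enzymes, 7 genes of the growth plate and bone, 3 homeobox genes and 4 joint genes. Limb cartilage forms when mesenchymal cells condense and SOX9, with SOX5 and SOX6, turns on the collagens and proteoglycans of the matrix. Cells at the centre of each element later become hypertrophic and make way for bone under Runx2, Runx3 and Sp7, while stripes of Gdf5-positive cells mark the future joints. The proximal elements of the limb condense before the digits.

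The samples came from wild-type B6CBAF1 embryos, titled E12 and given as E12.5 in the design text. The distal (DFL) and the proximal (PFL) piece of the forelimb were each profiled for H3K27ac, H3K27me3 and CTCF. H3K27ac is found at active enhancers and promoters, H3K27me3 is deposited by Polycomb complexes, and CTCF binds at many borders of chromatin domains. Each of the 6 libraries was alone in its group and was made from tissue pooled over several embryos, so no difference below has a replicate check and no p-value is given. Another 2 lists of peaks were tied to no sample, for the HOXA13 and HOXD13 factors in younger whole forelimbs. Each piece is a mixture of cell types, and fewer cells of a type cannot be told apart from less of a mark per cell. The lists held 59804 (DFL) and 69503 (PFL) H3K27ac regions and 9083 and 13873 H3K27me3 regions. Peaks were called against the library itself without an input. The lowest local background, a stand-in for depth, was 12.49 and 11.88 fragments for H3K27ac and 3.06 and 4.75 for H3K27me3, so that the DFL H3K27me3 library was the shallowest. The labels of the pieces were checked on markers. For 8 distal limb genes 56.9% of the H3K27ac covered length (bases inside regions, summed within 50 kb of the annotated 5′ end) was DFL, against 48.5% for 8 proximal limb genes and 46.4% for all genes. The windows of Hoxa11 (proximal) and Hoxa13 (distal) overlap. Without these genes, a choice made after seeing the data, the shares were 35.2% for the proximal and 54.04% for the distal list. Neither list was uniform. Of the 8 distal genes 5 had more covered length in DFL and 3 more in PFL, namely Jag1, Sall1 and Sall3. Of the 8 proximal genes 6 had more in PFL and 2 more in DFL, namely Hoxa11 and Irx5.

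Most cartilage and joint genes carried H3K27ac at a promoter in both pieces, and those marked in only 1 piece were all marked in PFL. A promoter was taken as marked when a region lay within 2 kb of any basic transcript start. H3K27ac was at the promoter in both pieces for 26 of the 33 genes, where the figure for all genes was 58%. These were Sox5, Sox6, Col2a1, Col9a1, Col9a2, Col9a3, Col11a1, Col11a2, Acan, Matn1, Matn3, Matn4, Hapln1, Chad, Chst11, Wwp2, Pth1r, Fgfr3, Runx2, Sp7, Trps1, Nkx3-2, Barx2, Gdf5, Gdf6 and Nog. No member was marked in DFL alone (1.16% of all genes), and 3 were marked in PFL alone (3.59% of all genes), namely Comp, Ucma and Runx3. With promoters of 1 kb only Runx3 was marked in PFL alone, with 3.33% of all genes. The other 4, Epyc, Ihh, Barx1 and Prg4, had no promoter H3K27ac in either piece, as had 37.2% of all genes. When all genes were weighted to the members' deciles of H3K27ac covered length, the share marked in both pieces was 76.6%, close to the 78.8% of the members.

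**Figure D1:**
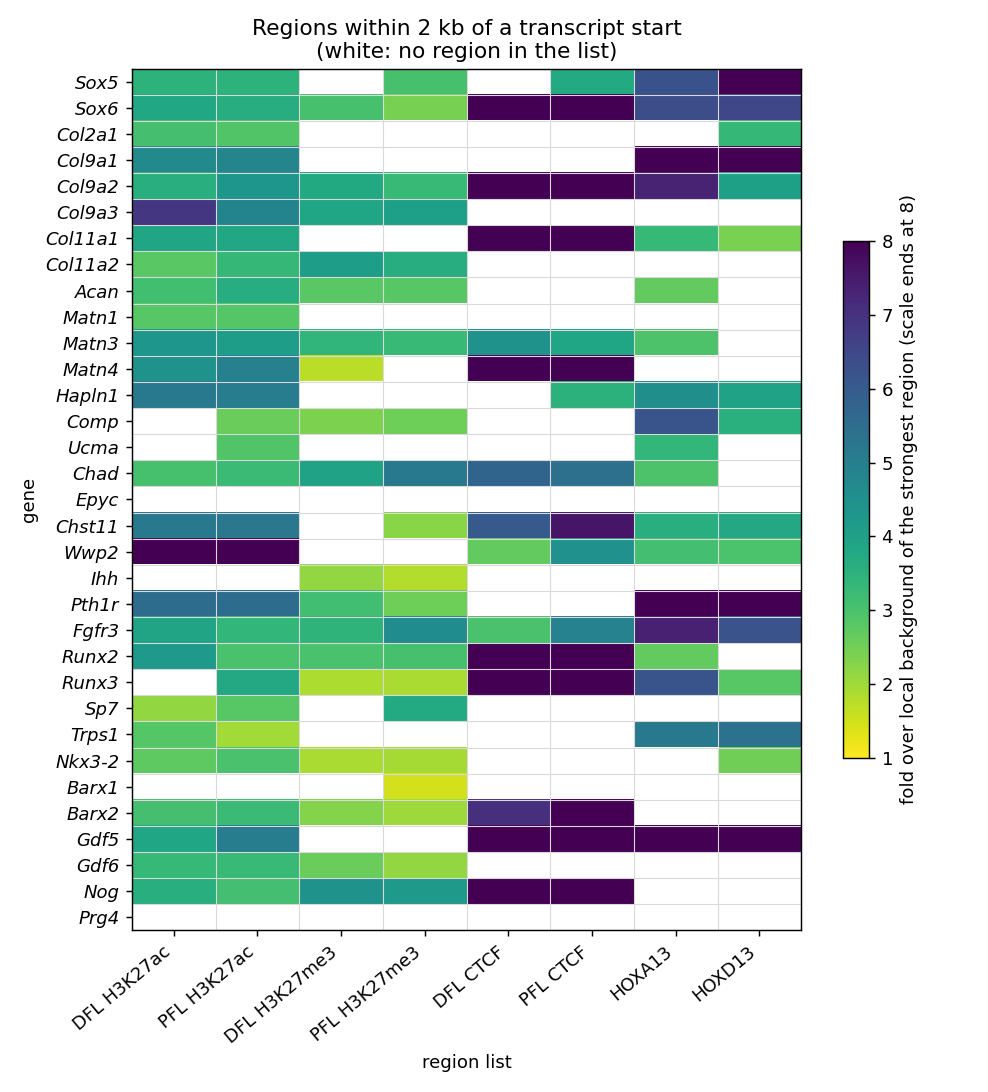
Regions within 2 kb of a transcript start for each of the 33 genes (rows) in each of the 8 lists (columns), coloured by the fold over local background of the strongest region, on a scale that ends at 8. White cells have no region, as for H3K27ac in DFL at Comp, Ucma and Runx3 and in both pieces at Epyc, Ihh, Barx1 and Prg4.

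The PFL-alone regions had folds between 2.60 and 3.78. At Comp, which encodes the cartilage oligomeric matrix protein, the PFL region had its summit at -1775 bp from the start with a fold of 2.60 over the local background, and DFL had none within 2 kb. At Ucma, the upper zone cartilage protein, the PFL region lay at +1870 bp with a fold of 2.90. Runx3, a RUNX factor of hypertrophic cartilage, had PFL regions at -480 bp and +822 bp with folds of 3.25 and 2.72. A further PFL region, at +32445 bp beside a second start, reached 3.78. In DFL no H3K27ac region lay within 2 kb of a Runx3 start, although both pieces shared a region about 26 kb inside the gene, with folds of 5.63 (DFL) and 5.30 (PFL). The median region near the members, at promoters or not, had a fold of 2.92 in DFL and 2.75 in PFL. By fold the Comp and Ucma regions were near that median. Their summit pileups, divided by the lowest background of the library, were 2.95 and 3.11. These were the lowest such values among the strongest PFL promoter regions of the members, with 4.46 at Matn1 and 20.1 at Wwp2.

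The choice of start changed the H3K27ac state of 2 members, Runx2 and Pth1r. Runx2, the regulator of hypertrophy and osteoblast fate, counted as marked in both pieces through regions about 79 kb inside the gene, where another set of transcripts begins. At its annotated 5′ end DFL had no H3K27ac region and PFL had 3, with summits at -466, +871 and +2197 bp and folds of 1.90, 2.92 and 1.81. Their levels, meaning the summit pileup divided by the lowest background of the library, were 6.23, 9.76 and 6.06. With the annotated 5′ end alone, 4 members were marked in PFL alone (Comp, Ucma, Runx2 and Runx3), with 3.65% of all genes. Then 0 were marked in DFL alone (1.21% of all genes), 24 in both and 5 in neither. Counted per piece, 24 members were marked in DFL and 28 in PFL, with 56.7% and 59.1% of all genes. Pth1r, the receptor for parathyroid hormone-related protein, moved to the unmarked group, since its H3K27ac regions began about 3 kb into the gene, with a strongest summit at +4062 bp and a fold of 5.52 in both pieces.

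Where both pieces had a promoter region, its strength ranged widely. By fold the strongest was at Wwp2, a ubiquitin ligase gene whose intron holds the microRNA gene Mir140 of cartilage, with 8.90 in DFL and 8.75 in PFL. Col9a3 had 6.91 and 4.84, Chst11, a chondroitin sulfotransferase, 5.17 and 5.21, and Hapln1, the link protein of the proteoglycan aggregate, 5.16 and 5.04. These pairs were nearly equal except at Col9a3. In DFL the lowest folds were at Sp7, the osteoblast factor osterix, with 2.12 (2.81 in PFL), and at Nkx3-2, with 2.742 (2.997 in PFL). Nkx3-2 is a repressor of early chondrocyte maturation. In PFL the lowest fold was at Trps1, with 1.97 (2.85 in DFL). Fold and level ranked the genes differently. Trps1 had levels of 26.7 (DFL) and 31.7 (PFL), above the 18.0 and 20.1 of Wwp2. Matn1, the matrilin of mature cartilage, had 2.81 and 2.84 at -1402 and -1394 bp.

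The 300-base promoters of 4 genes are shown because they cover the range of base composition among the members without H3K27ac in DFL. They are from the RefSeq table on GRCm38.p6, which matches mm10, and run 5′ to 3′ along the gene, with CG dinucleotides in capitals. Ucma and Epyc, a small leucine-rich proteoglycan of the growth plate, had no H3K27me3 at the promoter. Ihh, the hedgehog ligand of the growth plate, and Barx1, a homeobox gene, had it.
Ucma promoter chr2:4975872-4976171, plus strand: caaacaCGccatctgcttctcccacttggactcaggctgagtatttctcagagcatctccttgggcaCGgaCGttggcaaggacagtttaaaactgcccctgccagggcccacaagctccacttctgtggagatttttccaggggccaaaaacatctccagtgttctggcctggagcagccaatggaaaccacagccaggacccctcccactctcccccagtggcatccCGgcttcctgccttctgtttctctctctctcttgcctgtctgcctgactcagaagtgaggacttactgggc
Epyc promoter chr10:97643818-97644117, plus strand: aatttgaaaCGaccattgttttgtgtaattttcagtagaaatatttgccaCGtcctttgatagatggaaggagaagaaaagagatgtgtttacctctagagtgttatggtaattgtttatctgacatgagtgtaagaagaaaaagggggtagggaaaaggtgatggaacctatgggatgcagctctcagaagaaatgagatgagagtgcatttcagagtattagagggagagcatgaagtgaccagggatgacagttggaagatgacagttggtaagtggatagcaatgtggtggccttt
Ihh promoter chr1:74951623-74951922, minus strand: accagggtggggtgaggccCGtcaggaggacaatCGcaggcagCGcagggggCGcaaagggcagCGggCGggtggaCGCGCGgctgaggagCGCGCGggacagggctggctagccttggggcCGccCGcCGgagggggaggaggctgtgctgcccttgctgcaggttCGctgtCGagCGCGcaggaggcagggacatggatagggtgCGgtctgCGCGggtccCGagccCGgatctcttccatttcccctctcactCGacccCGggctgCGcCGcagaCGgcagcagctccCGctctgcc
Barx1 promoter chr13:48662786-48663085, plus strand: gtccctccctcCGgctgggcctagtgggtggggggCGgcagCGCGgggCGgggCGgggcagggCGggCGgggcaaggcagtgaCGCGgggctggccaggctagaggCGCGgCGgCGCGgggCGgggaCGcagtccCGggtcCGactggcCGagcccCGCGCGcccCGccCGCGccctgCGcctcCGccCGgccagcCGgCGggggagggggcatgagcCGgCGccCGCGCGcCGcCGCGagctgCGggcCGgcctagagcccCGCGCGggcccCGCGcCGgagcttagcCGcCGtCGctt

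The Ucma promoter held 4 CG dinucleotides and that of Epyc 2, whereas Ihh had 30 and Barx1 50. Barx1 stood at the 99.1 percentile of the 27018 promoters in the table, and Epyc at 14.6. Among the 22 members with a promoter in the table within 2 kb of the annotated 5′ end, the median was 10.5 CG, compared with 7 for all promoters. The 15 with promoter H3K27me3 in either piece had a median of 15 (range 2 to 50) and the 7 without it a median of 4 (range 0 to 28). The groups overlapped. The mark was counted here at any start. Counted at the annotated 5′ end, where the window lies, Runx3 had none and the medians were 15.5 over 14 genes and 5 over 8. Runx2 had only 2 CG in the window at its 5′ end and counted as marked, and Wwp2, with 28, had no H3K27me3. Col9a1 had 0 CG, the fewest of the members. These counts are a description over genes.

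**Figure D2:**
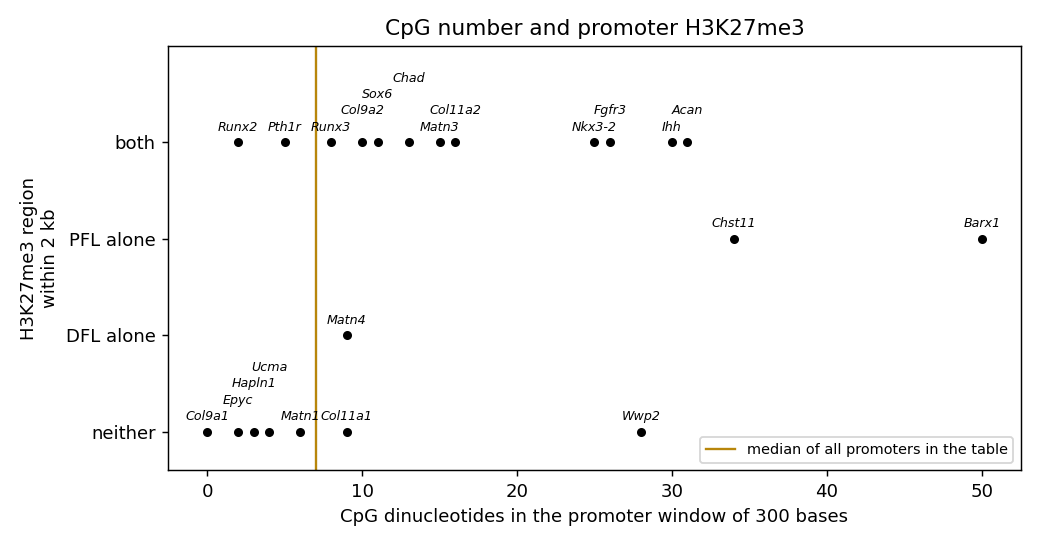
Number of CG dinucleotides in the 300-base RefSeq promoter (horizontal axis) of 22 members, in rows by the piece or pieces with promoter H3K27me3, with the median of all promoters as a line at 7. The marked members lie mostly to the right of the line, with Runx2 at 2 and Pth1r at 5 to its left, and Wwp2 is the unmarked gene at 28.

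In the 50 kb either side of the annotated 5′ ends the members had more H3K27ac covered length in PFL than in DFL, in about the same proportion of genes as elsewhere. PFL was the longer for 26 of 33 members (78.8%) and for 78.0% of all 17920 genes with a region. The median difference, DFL minus PFL, was -1001 bp for the members and -411 bp for all genes, whose covered lengths were shorter (median in PFL 5420 bp for the members and 3560 bp for all). A gene was called when 1 piece had at least 1.5 times and 500 bp more than the other. No member was called for DFL, with 2.91% of all genes, and 8 of 33 (24.2%) were called for PFL, with 15.8% of all genes and 12.4% after weighting to the members' deciles of covered length. The 8 were Acan, Comp, Ucma, Epyc, Runx2, Runx3, Nkx3-2 and Barx2. With windows of 100 kb 4 members were called for PFL (Acan, Epyc, Runx2 and Sox5) and 1 for DFL (Ihh), with 15.3% and 2.45% of all genes, so the members' excess for PFL was not seen at that width. Markers of muscle moved the same way. The 8 muscle genes had 14009 bp in DFL and 27968 bp in PFL, 7 of them carried promoter H3K27ac in PFL and 1 in DFL, and Myod1 and Pax7 had no H3K27ac within 50 kb in DFL. The 7 endothelial genes had 17263 and 28195 bp, although 1 of them, Tie1, was longer in DFL. The DFL share was 33.4% for muscle and 38.0% for endothelium. It was 43.6% for tendon, 44.3% for blood, 46.6% for glia and nerve and 49.9% for ectoderm. Of the 7 ectoderm genes, 5 carried promoter H3K27ac in DFL and 3 in PFL. The part of these cell types in the cartilage values was not tested. Coverage was 44.2% DFL for the members and 46.4% for all genes.

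**Figure D3:**
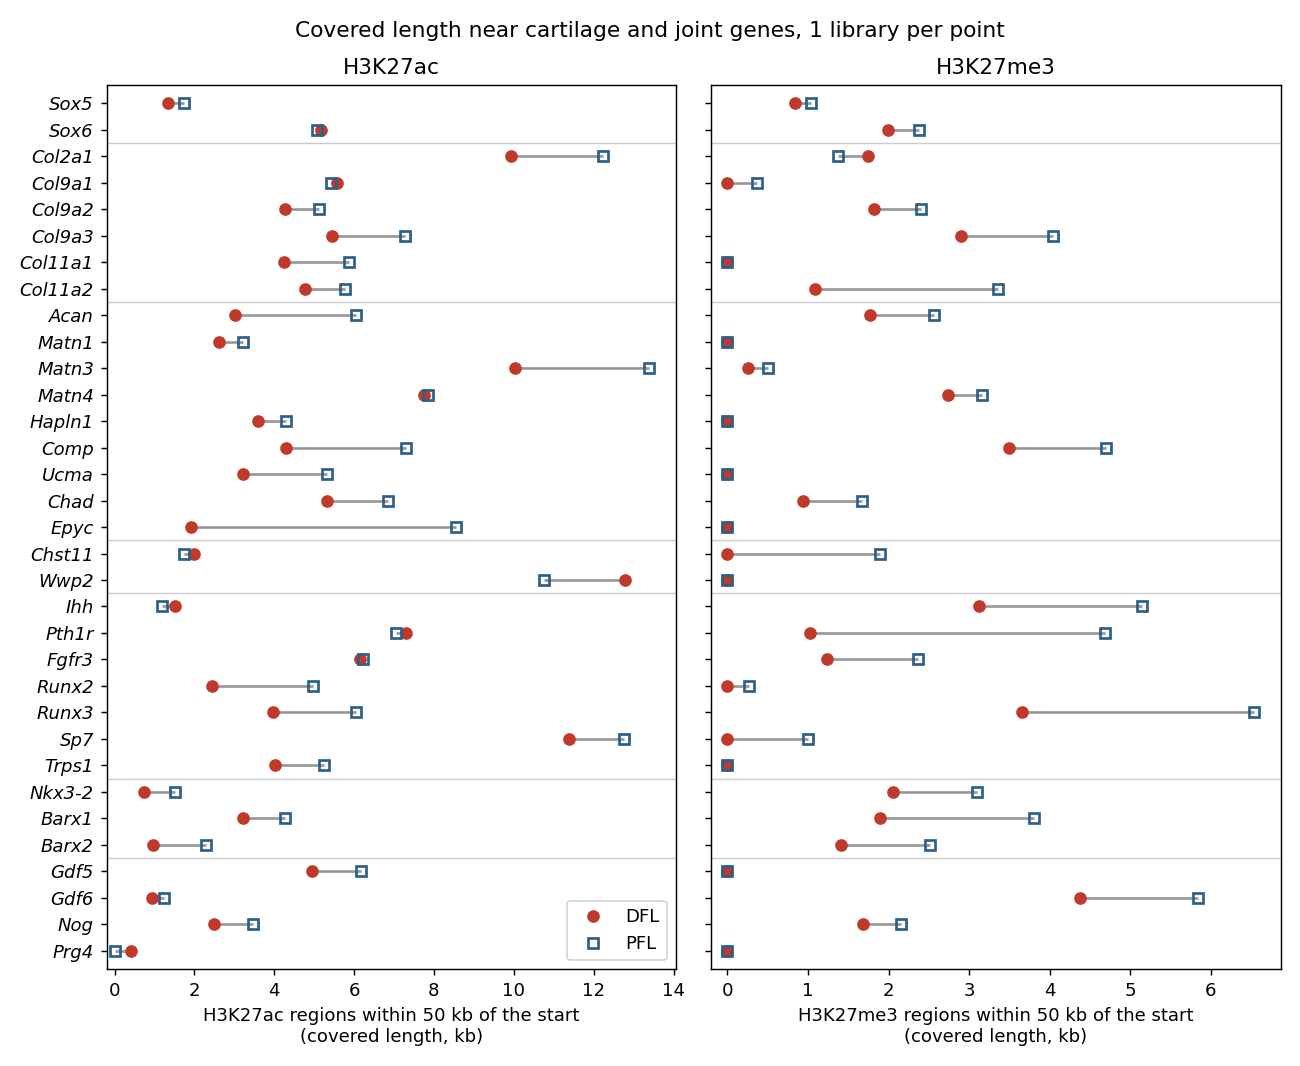
Covered length in kb of H3K27ac and of H3K27me3 regions within 50 kb of the annotated 5′ end, with 1 point for the DFL and 1 for the PFL library of each of the 33 genes, ordered by role. For H3K27ac the widest gap is at Epyc (1923 and 8560 bp) and Wwp2 is the main gene with more in DFL; for H3K27me3 only Col2a1 is longer in DFL.

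All 9 matrix genes outside the collagens had more covered length in PFL, 4 of them were called, and 39.9% of their length was DFL. For Epyc, DFL had 1923 bp in 6 regions and PFL had 8560 bp in 11, which was 4.45 times as much and lay at the 0.022 percentile of all genes. Acan, the core protein of aggrecan, had 3011 bp in DFL and 6036 bp in PFL. Comp had 4287 and 7291 bp, and Ucma 3226 and 5321 bp. Matn3, a matrilin of growth plate cartilage, had 10027 and 13384 bp, among the 5 widest differences but under the 1.5 times of a call. The other 4 were closer, with Chad, the collagen-binding chondroadherin, at 5312 and 6846 bp, Hapln1 at 3602 and 4303 bp, Matn1 at 2612 and 3222 bp and Matn4 at 7760 and 7841 bp.

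None of the collagen genes was called, and 5 of 6 were longer in PFL. Col2a1, the main collagen of cartilage, had 9928 bp in 13 regions in DFL and 12224 bp in 17 in PFL. For Col9a1, a chain of the collagen IX that decorates the fibrils, DFL was slightly the longer, with 5561 against 5420 bp. Col9a2 had 4280 and 5122 bp and Col9a3 5454 and 7274 bp. The collagen XI genes, whose product is part of the same fibrils, had 4249 and 5867 bp (Col11a1) and 4766 and 5767 bp (Col11a2). Sox5 and Sox6 showed little difference in covered length, with 1330 and 1739 bp for Sox5 and 5165 and 5076 bp for Sox6.

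A few genes had more in DFL, and none of them met both limits of a call. For Wwp2, DFL had 12782 bp in 19 regions and PFL 10762 bp in 17, at the 99.4 percentile of all genes. Its DFL-alone regions inside the gene, at +12570 and +12974 bp, had folds of 2.46 and 2.30. With regions of at least 5-fold only, Wwp2 was instead called for PFL. Ihh had 1519 bp in DFL and 1176 bp in PFL, Pth1r 7310 and 7047 bp, and Chst11 1995 and 1737 bp. For Prg4, which encodes the joint lubricant lubricin, the only H3K27ac region of either piece was a DFL region of 424 bp at -14531 bp with a fold of 2.74, which is under the 500 bp of a call.

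Of the growth plate and bone genes, Runx2 had 2444 bp in 4 DFL regions and 4964 bp in 9 PFL regions, and Runx3 had 3971 and 6035 bp in 9 regions each. Runx3 was just inside the call, at 1.52 times. Sp7 had 11369 and 12750 bp, Trps1, a zinc finger repressor in chondrocytes, 4007 and 5250 bp, and Fgfr3, the receptor that restrains chondrocyte proliferation, 6145 and 6220 bp. The homeobox genes were longer in PFL in all 3 cases. Nkx3-2 had 738 and 1507 bp, Barx2 964 and 2301 bp and Barx1 3227 and 4261 bp. Among the joint genes, the ligands Gdf5 and Gdf6 had 4947 and 6171 bp and 928 and 1230 bp. Nog, the BMP antagonist noggin, had 2482 and 3471 bp, just outside the call at 1.40 times.

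Window lengths do not show at which elements the pieces differed. Near the members 36 of 223 DFL H3K27ac regions overlapped no PFL region (16.1%, Wilson 95% interval 11.9 to 21.5), compared with 26.7% of all DFL regions. The reverse held for 84 of 262 PFL regions (32.1%, 26.7 to 37.9), compared with 38.1% of all. Intervals cover counting error only. Not every region belongs to the member, since 74 of the 223 DFL regions (33.2%) and 79 of the 262 PFL regions (30.2%) lay in other genes. The window of 19 members also held the start of another protein-coding gene, at most 5. The strongest H3K27ac region in the window of Col9a3, chr2:180582662-180583160 with folds of 10.6 (DFL) and 10.9 (PFL), lay in an exon of Mrgbp. At Gdf5 a region at -10976 bp, chr2:155955963-155957310, had folds of 9.08 and 8.80.

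**Figure D4:**
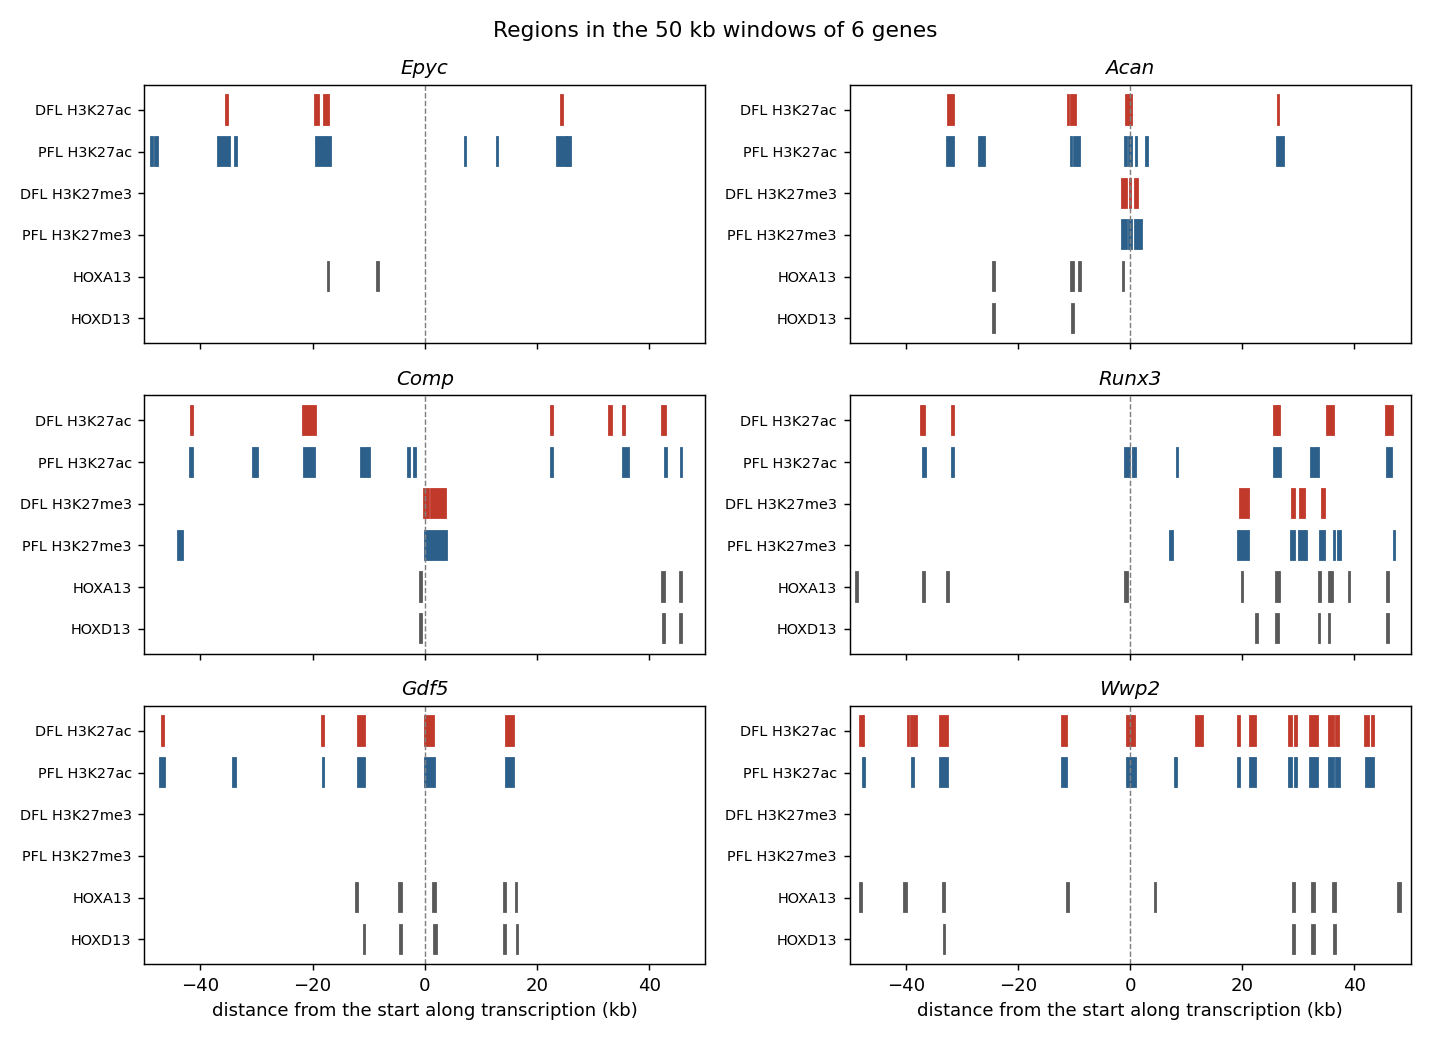
Regions of 6 lists in the 50 kb windows of Epyc, Acan, Comp, Runx3, Gdf5 and Wwp2, placed by distance in kb from the annotated 5′ end along the direction of transcription (dashed line at 0). Epyc has 6 DFL and 11 PFL H3K27ac regions and none within 2 kb of the start, and Comp has PFL H3K27ac regions just upstream of the start where DFL has none.

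At regions shared by both pieces the H3K27ac level was lowest in DFL relative to PFL at Epyc, Nkx3-2 and Acan. Over the 187 shared H3K27ac regions near members the median log2 ratio of levels, DFL over PFL, was -0.23, and the middle 50% lay between -0.48 and 0.01. Over all 43803 shared regions it was -0.16. Each DFL summit was paired with the strongest summit of the PFL region it overlapped, so several DFL regions can share a PFL value. Epyc had the lowest median, -1.45 over 6 regions, none above -1.07. A PFL region about 19 kb upstream, of level 10.3, was overlapped by 3 DFL regions of levels 4.64, 2.48 and 4.08, the first with its summit nearest that of PFL. At the region about 24 kb inside the gene the level was 3.04 in DFL and 9.01 in PFL. Nkx3-2, with a single shared region at its promoter, had levels of 2.88 and 7.83, a log2 ratio of -1.44. Acan had a median of -1.07 over 6 regions, and its region at the start had levels of 2.80 and 6.48.

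For the other members the medians lay between -0.73 (Gdf6) and 0.33 (Fgfr3). Col2a1 was at -0.25 over 12 regions, with promoter levels of 16.6 and 23.1. Col11a1 was at -0.72 and Matn4 at -0.59, while Wwp2 was at -0.11 over 15 regions and Gdf5 at -0.13 over 5. The 4 members with the highest medians were Fgfr3, Ihh (0.24 over 2 regions), Runx2 (0.17 over 4) and Pth1r (0.13 over 9). The highest single ratio near a member was 1.11, at a Pth1r region at -4148 bp, in an intron of Myl3, with levels of 9.29 in DFL and 4.29 in PFL.

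**Figure D5:**
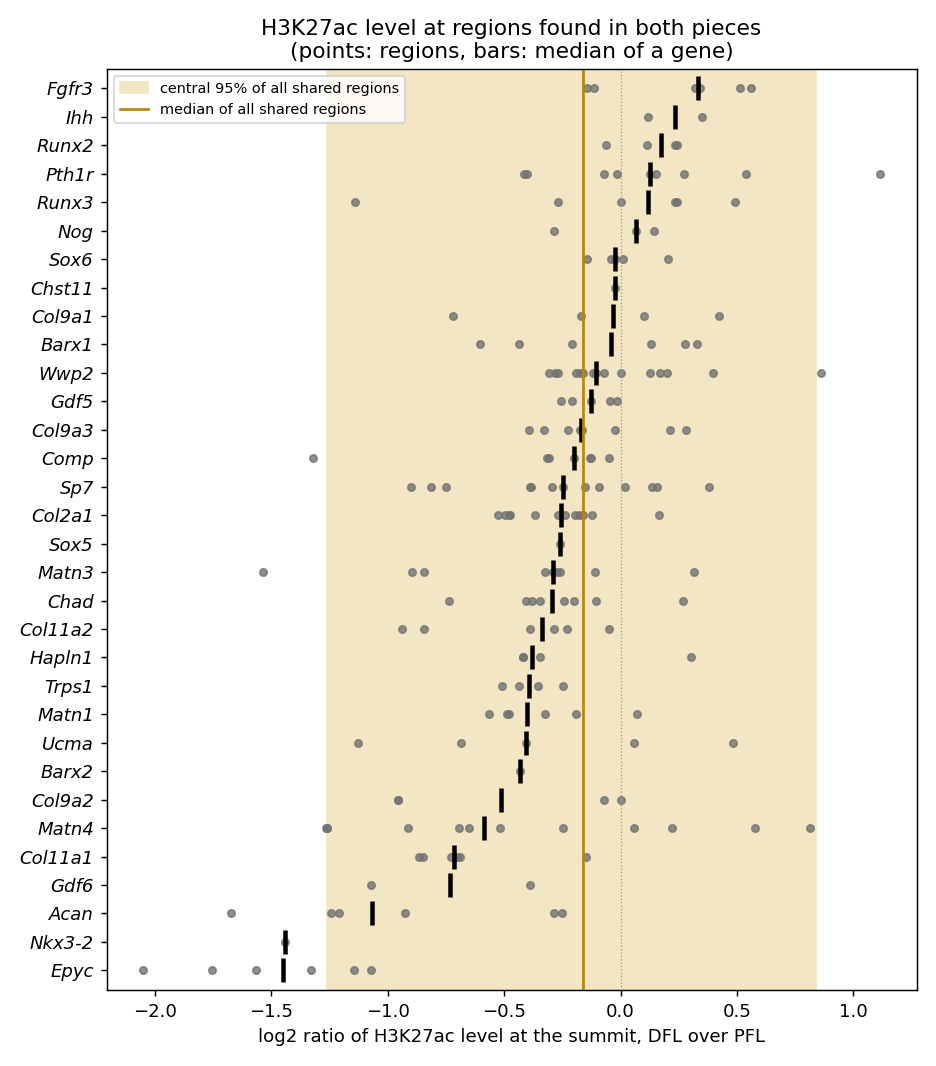
Log2 ratio of the H3K27ac level at the summit, DFL over PFL, for each shared region (points) within 50 kb of each member, in order of the gene median. Epyc, Nkx3-2 and Acan lie at the PFL end with medians of -1.45, -1.44 and -1.07, and Fgfr3 at the DFL end with 0.33.

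The Epyc region about 19 kb upstream is shown around its PFL summit. The region is intergenic and was picked because it held the lowest log2 ratio, -2.05, of all shared H3K27ac regions near members. That ratio pairs a DFL summit of level 2.48 with the PFL summit of level 10.3. As given above, another DFL region had its summit nearer to this PFL summit, and its level was higher. Capitals mark a match to the SOX letters ACAATG. A match to the HOX13 letters CAATAAA, also in this window, is left in lower case.
Epyc H3K27ac window chr10:97624869-97625019, plus strand: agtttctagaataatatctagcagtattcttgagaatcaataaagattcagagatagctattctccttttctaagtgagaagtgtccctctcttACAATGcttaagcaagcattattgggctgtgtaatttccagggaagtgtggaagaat

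The letters ACAATG were in 16.4% of all 301-base windows at HOXA13 summits. The Epyc window is shorter, with 151 bases, and lies at an H3K27ac summit, for which no such share is given here. The match is a description of the sequence.

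H3K27me3 was more frequent around the cartilage and joint genes than around other genes, and longer in PFL. A region of either piece lay within 50 kb for 24 of 33 members (72.7%), compared with 45.7% of all genes. At the promoter it was present in both pieces for 17 members (51.5%), compared with 16.2% of all genes. The 17 were Sox6, Col9a2, Col9a3, Col11a2, Acan, Matn3, Comp, Chad, Ihh, Pth1r, Fgfr3, Runx2, Runx3, Nkx3-2, Barx2, Gdf6 and Nog. In DFL alone it was at 1 member, Matn4 (0.475% of all genes), and in PFL alone at 4, Sox5, Chst11, Sp7 and Barx1 (4.01% of all genes). The remaining 11 had none at the promoter, Col2a1, Col9a1, Col11a1, Matn1, Hapln1, Ucma, Epyc, Wwp2, Trps1, Gdf5 and Prg4, as had 79.3% of all genes. The PFL library was the deeper of the pair. With lists of equal size the mark was in DFL alone at 2 members (Matn3 and Matn4, with 1.47% of all genes). It was then in PFL alone at 1 (Sp7, with 1.89%).

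The regions behind these calls in 1 piece differed in strength and position. The Matn4 region, chr2:164404999-164405368 at +56 bp, had a fold of 1.73 in DFL, and PFL regions lay on both sides of it, at -3416 and +3236 bp. For Barx1 the PFL regions at +1356 and +1863 bp had folds of 1.47 and 1.48 beside high levels of 34.98 and 34.77. Both pieces also shared a region at -3683 bp (DFL) and -3657 bp (PFL), with levels of 31.98 and 32.03. At Chst11 the PFL regions were at -1025 and +1433 bp, with folds of 2.13 and 2.23, and DFL had no H3K27me3 region within 50 kb. Sp7 had a PFL region at +1077 bp with a fold of 3.73 and likewise none in DFL. The Sox5 call came from a PFL region 573905 bp inside the gene. At the annotated 5′ end of Sox5 both pieces had a region, with levels of 7.18 (DFL) and 12.6 (PFL).

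In covered length 23 of the 24 members with a region were longer in PFL (95.8%, with 90.4% of all genes), and the median difference was -1026 bp for the members and -580 bp for all genes. No member was called for DFL (1.01% of the 9912 genes with a region), and 11 of 24 (45.8%) were called for PFL, with 37.4% of all genes. They were Col11a2, Chad, Chst11, Ihh, Pth1r, Fgfr3, Runx3, Sp7, Nkx3-2, Barx1 and Barx2. With lists of equal size 6 were called for PFL (Col11a2, Chad, Pth1r, Fgfr3, Sp7 and Barx2) and 1 for DFL (Col2a1). The figures for all genes were then 25.3% and 3.68%. Runx3 had the longest coverage in PFL, 6537 bp, with 3651 bp in DFL. Gdf6 had the longest in DFL, with 4381 and 5845 bp, Ihh 3121 and 5147 bp, and Comp 3498 and 4703 bp. The widest ratio among the long ones was at Pth1r, with 1030 bp in 2 DFL regions and 4690 bp in 5 PFL regions. Col9a1, with 371 bp in PFL, and Runx2, with 266 bp in PFL, had none in DFL. The H3K27me3 that counted for both pieces at Runx2 lay about 76 kb inside the gene, outside this window. At the annotated 5′ end Runx2 and Pth1r had the mark in PFL alone and Runx3 had none, its regions lying about 30 kb inside.

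Col2a1 was the exception in covered length. Its H3K27me3 lay inside the gene, 3 to 5 kb past the start, and measured 1744 bp in DFL and 1372 bp in PFL. The levels at the 3 DFL regions were 18.3, 15.7 and 15.3, and those of the PFL regions they overlapped were 6.95 and 9.69. The median log2 ratio of levels there was 0.69, higher in DFL. Over all 60 shared H3K27me3 regions near members it was -0.11 and over all shared regions of the genome -0.12. Fold over the local background differed from level. The folds were 2.58, 2.11 and 1.96 at the DFL regions and 2.34 and 3.04 at the PFL regions. By fold only the first DFL region was the higher. H3K27ac at the Col2a1 promoter was in both pieces and at the higher level in PFL. The opposite end was Fgfr3, with DFL levels of 9.46 and 6.53 at 2 regions that overlapped the same PFL region of level 22.1, ratios of -1.23 and -1.76.

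Both marks met at many of these promoters. An H3K27ac and an H3K27me3 region, in whichever piece, lay within 2 kb of a start for 20 of 33 members (60.6%) and for 13.8% of all genes. Asking for both at the same start left the same 20 of 33, with 13.3% of all genes. They were Sox5, Sox6, Col9a2, Col9a3, Col11a2, Acan, Matn3, Matn4, Comp, Chad, Chst11, Pth1r, Fgfr3, Runx2, Runx3, Sp7, Nkx3-2, Barx2, Gdf6 and Nog. In Acan the H3K27ac region at the start and the H3K27me3 region at about +1060 bp were separate in both pieces, with H3K27me3 levels of 18.28 (DFL) and 20.02 (PFL). Whether the marks were on the same chromosomes or in different cells of the piece cannot be told apart in these lists.

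HOXA13 and HOXD13 are factors of the distal limb, where they take part in digit formation. A region of either list lay within 2 kb of a start for 21 of 33 members (63.6%), compared with 37.5% of all genes and 47.5% after weighting to the members' deciles of H3K27ac covered length. HOXA13 was at 19 of them and HOXD13 at 16. The 21 were Sox5, Sox6, Col2a1, Col9a1, Col9a2, Col11a1, Acan, Matn3, Hapln1, Comp, Ucma, Chad, Chst11, Wwp2, Pth1r, Fgfr3, Runx2, Runx3, Trps1, Nkx3-2 and Gdf5. Some counted through internal starts. The HOXA13 region counted for Runx2 lay 78086 bp past the annotated 5′ end, and that for Wwp2 108263 bp past it. The strongest HOXA13 regions counted for Sox5 and Sox6 lay 570776 and 214011 bp past it. HOX13 regions were not counted at the annotated 5′ end alone. Col2a1 and Nkx3-2 had HOXD13 alone, at -20 and -1213 bp with folds of 3.33 and 2.53. Within 50 kb the members had a mean of 5.06 HOXA13 and 4.03 HOXD13 regions, compared with 3.41 and 2.95 for all genes weighted in the same way.

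The strongest HOX13 region near a start was that of Pth1r at +612 bp, with a HOXA13 fold of 14.8 and a HOXD13 fold of 8.52. Col9a1 had folds of 12.51 and 11.54 beside its internal start, about 18.7 kb past the annotated 5′ end, and Gdf5 10.5 and 10.2 at +1863 bp. At the other promoters the folds were lower, with HOXA13 at 7.37 for Fgfr3, 7.32 for Col9a2, 6.19 for Comp, 4.51 for Hapln1 and 2.67 for Acan. Away from the starts the highest was in an intron of Runx3 at +26399 bp, with 14.9 and 13.4, where both pieces had H3K27ac.

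The 151-base windows at 5 summits found in both HOX13 lists are shown, since they are the strongest near Runx3, Col9a1 and Gdf5 and the sites beside the H3K27ac regions of Ihh and Prg4, which had no H3K27ac at the promoter. The window is centred on the HOXA13 summit, and capitals mark the HOX13 letters CAATAAA or CGTAAA on either strand.
Runx3 HOX13 window chr4:135146976-135147126, plus strand: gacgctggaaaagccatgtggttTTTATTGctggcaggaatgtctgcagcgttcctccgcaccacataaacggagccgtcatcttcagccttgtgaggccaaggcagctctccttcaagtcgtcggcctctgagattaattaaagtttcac
Col9a1 HOX13 window chr1:24196208-24196358, plus strand: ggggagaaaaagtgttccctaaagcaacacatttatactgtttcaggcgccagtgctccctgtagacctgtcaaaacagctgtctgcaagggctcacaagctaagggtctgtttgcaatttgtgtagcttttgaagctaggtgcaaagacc
Gdf5 HOX13 window chr2:155943429-155943579, plus strand: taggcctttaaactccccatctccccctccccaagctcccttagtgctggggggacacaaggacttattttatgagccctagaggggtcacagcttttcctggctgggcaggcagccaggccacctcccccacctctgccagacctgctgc
Ihh HOX13 window chr1:74964866-74965016, plus strand: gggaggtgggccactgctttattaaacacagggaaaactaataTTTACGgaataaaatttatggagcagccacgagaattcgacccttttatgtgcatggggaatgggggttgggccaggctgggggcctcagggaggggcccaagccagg
Prg4 HOX13 window chr1:150480816-150480966, plus strand: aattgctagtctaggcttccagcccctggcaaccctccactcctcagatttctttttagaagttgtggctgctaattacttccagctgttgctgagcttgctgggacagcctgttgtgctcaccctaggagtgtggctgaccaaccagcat

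The Runx3 window held CAATAAA and that of Ihh CGTAAA, each on the minus strand, and the other 3 held neither. The Ihh site had folds of 7.77 (HOXA13) and 6.09 (HOXD13) and lay in an H3K27ac region of both pieces with levels of 4.72 (DFL) and 3.70 (PFL). The Prg4 site had folds of 4.79 and 4.25. In 301-base windows the letters were found at 41 of 167 HOXA13 summits near members (24.6%, 18.6 to 31.6) and at 27.8% of all HOXA13 summits. For HOXD13 they were at 39 of 133 (29.3%, 22.3 to 37.6) and at 27.01% of all. The SOX letters ACAAAG or ACAATG were at 36.5% of the HOXA13 summits near members and 37.8% of all, and at 33.1% and 36.8% for HOXD13. The intervals near members held the values of the whole lists in each case. In the 300-base promoters the HOX13 letters were in 2 of 22 members and 7.84% of all promoters.

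HOX13 regions overlapped H3K27ac regions near members about as often as elsewhere. The share was 37.7% of DFL regions and 32.8% of PFL regions, compared with 38.7% and 30.5% over the genome. Of the DFL-alone regions 36.1% overlapped (13 of 36, 22.5 to 52.4) and of the PFL-alone regions 15.5% (13 of 84, 9.27 to 24.7). Over the genome the figures were 32.55% and 12.53%.

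CTCF differed little between the pieces. A CTCF region of either piece lay within 2 kb of a start for 16 of 33 members (48.5%), compared with 34.8% of all genes. The DFL share of CTCF covered length was 49.995% for the members and 50.065% for all genes. The median log2 ratio of levels at the 156 shared CTCF regions was 0.11, and 0.14 over the genome. Trps1 was the only member with no CTCF region within 50 kb.

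A list of 30 further skeletal genes was described in the same way. None was called for DFL H3K27ac, with 2.91% of all genes, and 6 of the 28 with a region were called for PFL, with 15.8% of all genes. Cnmd, the cartilage protein chondromodulin, had 2925 bp in DFL and 6332 bp in PFL. Erg, a factor of articular chondrocytes, had 3913 and 6933 bp, and Snorc, a cartilage membrane proteoglycan, 227 and 1392 bp. The others were Col1a1 (7119 and 11471 bp), the collagen of bone and tendon, Dcx (1060 and 3325 bp) and Susd5 (1579 and 2604 bp). For H3K27me3, 16 of 20 were called for PFL and 0 for DFL, with 37.4% and 1.01% of all genes. The PFL library was the deeper of the H3K27me3 pair, and no result with lists of equal size is given for these genes. Sox9, the master factor of cartilage, had 365 bp in DFL and 1778 bp in PFL, with H3K27ac of 2988 and 3740 bp and both marks at the promoter in both pieces. Ibsp and Mmp13, genes of mature bone and hypertrophic cartilage, had no region of either mark within 50 kb.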

How the data were processed

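Processing tools named in the labels are MACS2, SAMtools, Bowtie and cutadapt, with mm10 as the build. According to the study's methods, reads were trimmed, mapped, filtered for confident alignments, and peaks were called per library with no input at a q-value of 0.05. In the deposited lists the fold, a ratio of summit pileup to local background, and the −log10 p-value and q-value are the authors' own. Deposited files of 6 samples and 2 lists of no sample were used.

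Regions sharing an interval were collapsed and overlaps merged. Starts came from basic GENCODE vM21 transcripts, and 54 of 21755 protein-coding genes without a unique symbol were left out. The annotated 5′ end of 6 members was not itself a basic start. It lay within 500 bp of such a start for 5 of them and 572409 bp away for Sox5. Summit pileup, a whole number, and background were solved from fold and −log10 p with the Poisson tail. The level divides pileup by the library's lowest background (percentile 1), so it measures depth only indirectly. A call needed 1.5 times and 500 bp more, and overlap 1 bp. No test was possible with 1 library per group. The 33 genes and all other lists were chosen with earlier results of these data known. Members are named with their promoter state, and in full where the state differed between pieces, where they were among the 5 widest differences in H3K27ac or the 5 longest in H3K27me3, or where a HOX13 region lay at the promoter; others were added after their values were seen. Pileup solving was tested on simulated data. Promoters were matched by symbol for 22 members. Settings were varied as given in the closing section. Python 3.11.15, numpy 2.4.6, pandas 2.3.3 and scipy 1.17.1 were used.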

Additional observations from a re-analysis of the deposited data

How the results depend on the processing

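With 1 library per group no replicate could be left out. No paired analysis was possible because each mark and piece had 1 library and no result came from a test. With regions of at least 5-fold only, H3K27ac was at the promoter of 5 members in DFL and 5 in PFL. This was now a smaller share than the 43.7% and 44.5% of all genes. It was at 1 in DFL alone (Col9a3) and 1 in PFL alone (Gdf5), with 1.82% and 2.56% of all genes. The median difference in covered length was -112 bp for the members and -111 bp for all genes. For DFL 2 members (Chad and Col2a1) were called, with 5.81% of the 14658 genes that still had a region. For PFL 6 were called (Acan, Comp, Gdf5, Pth1r, Runx3 and Wwp2), with 10.997% of these genes. H3K27me3 was then at 0 promoters in DFL and 1 in PFL, with 1.53% and 1.82% of all genes. It was in PFL alone at 1 (1.02% of all genes) and in DFL alone at 0 (0.728%). The DFL share was 0%, and 1 member, Chad, was called for PFL, with 43.5% of the 1737 genes that still had a region. The number of members with a region at this setting is not given here for either mark, so these counts of calls cannot be set against the shares. Promoters of 1 kb left 1 member with H3K27ac in PFL alone (3.33% of all genes). Promoters of 5 kb left 0 with H3K27me3 in DFL alone (0.447% of all genes). For H3K27ac, a window of 25 kb gave a median of -647 bp, one of 100 kb gave 1 member called for DFL and 4 for PFL (2.45% and 15.3% of all genes), and a call at 2 times gave 5 for PFL (Acan, Barx2, Epyc, Nkx3-2 and Runx2), with 7.39% of all genes. That call gave 5 for PFL in H3K27me3 (Barx1, Chst11, Col11a2, Pth1r and Sp7), with 22.9% of all genes. By number of regions the median was -1 for H3K27ac. Then 5 members were called for DFL (Chst11, Gdf6, Ihh, Prg4 and Sox6), with 9.63% of all genes. For PFL 8 were called, with 26.1% of all genes, so the members' excess for PFL was not seen. For H3K27me3 the median was -0.5. Then 2 were called for DFL (Chad and Col2a1) and 10 for PFL, with 9.51% and 46.8% of all genes. With −log10 q of at least 5, H3K27me3 was at 0 promoters in DFL alone (0.608% of all genes). The median HOXD13 count was then 2 per window and the HOX13 overlap of DFL H3K27ac regions was 31.4%. With lists of equal size, H3K27me3 was in DFL alone at 2 promoters and in PFL alone at 1, with 1.47% and 1.89% of all genes. The median was -576 bp and the DFL share 42.8%. Then 1 member was called for DFL and 6 for PFL, with 3.68% and 25.3% of all genes. H3K27ac calls for PFL were then 7, with 12.8% of all genes. A HOX13 summit inside the region gave overlaps of 25.6% (DFL) and 24.4% (PFL), and sites of both lists 21.5% and 19.5%. The sign turned for Runx2 H3K27ac with at least 5-fold (13 bp) and for Chad and Nkx3-2 H3K27me3 by number of regions (1 each). The causes were not tested. Of the called members 42 of 48 H3K27ac values and 53 of 66 H3K27me3 values kept their sign. A region absent from a list may only lie under the authors' threshold, most easily in the shallower DFL H3K27me3 library.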
